A study of Mus musculus with 24 samples.

Results

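The colon transcripts that were bright enough to be measured reliably were compared between 2 post-weaning diets in mice. A probe entered this set if it was no control probe and if the image software marked its sample signal as well above background (mean over repeated spots at least 0.5) on 6 or more of the 12 colon arrays. Of the 41174 probes of the array, 18078 (43.9%) qualified, and they carried 13283 of the 27962 different gene names on the array. Of the members, 13836 were detected on all 12 arrays. The set was therefore chosen by measured values of the same arrays, and how many probes it holds is a description and not a result.

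The study's hypothesis was that a sufficient supply of selenium and folate after weaning would bring about epigenetic changes relevant to later health. The offspring had been exposed to high fat and a low supply of both nutrients through their mothers. Gene expression was among the outcomes measured. All 12 offspring were female C57BL/6 mice aged 12 weeks, and the dams of both groups had eaten HF-Low, which is rich in fat and poor in selenium and folate, before mating and through gestation and lactation. After weaning at about 28 days, 6 offspring stayed on the HF-Low diet (HF-low-low) and 6 received HF-Suf, equally a high-fat diet but with enough of both nutrients (the group HF-low-suf). RNA of the whole colon of each mouse, labelled with Cy3, was hybridised on its own array. The reference on each array was a pool of intestinal and liver RNA of all mice, labelled with Cy5, with no dye swap. Every group ate a high-fat diet, so a mouse on a low-fat diet is not part of this comparison, and a difference between the groups is that of the 2 post-weaning diets within one maternal diet.

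The wall of the colon holds an epithelium of absorptive colonocytes, mucus-secreting goblet cells and hormone-secreting enteroendocrine cells, all renewed from stem cells at the base of the crypts. Below it lie a connective tissue rich in fibroblasts, vessels and immune cells, and the smooth muscle with the enteric nervous system. Selenium is built into selenoproteins as selenocysteine, many of which reduce peroxides or thiols, and folate carries the one-carbon units used for nucleotide synthesis and for the methionine cycle, which supplies the methyl groups of DNA methylation.

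The probes of the 3 genes that passed the threshold of the comparison, and a pair of probes for Klf2 that differ in base content and in spread between mice, are given here by the first 30 of their 60 bases, 5′ to 3′, with G and C in capitals. Coordinates follow build mm7, as the scanner files give them, and the place of each probe within an exon or untranslated region was not analysed here. The Nov probe lies on the plus strand at chr15:54812769-54812828, and the Nrf1 probes on the plus strand at chr6:30048287-30048346 (probe 1) and chr6:30084667-30084726 (probe 2). The Akap1 probes lie on the minus strand at chr11:88944134-88944193 (probe 1), chr11:88953441-88953500 (probe 2) and chr11:88940387-88940446 (probe 3). The Klf2 probes lie on the plus strand at chr8:70844133-70844192 (probe 1) and chr8:70842757-70842816 (probe 2).
Nov: aatGaaaGatGttCCGaatGtaaaCttaGa
Akap1 probe 1: CaatGaGGtGGaGattCGCtaCGtGGaCta
Akap1 probe 2: GGGGCaGtGCtCaGatCCtGtCaGtaCttC
Akap1 probe 3: GGaGtGaGaCatGGaCtaattGGtatCGat
Nrf1 probe 1: aaGCaaCatGGGCGGGaGGatCttttatat
Nrf1 probe 2: tCaGtCCtGttaCaaaCtGaaGGtGaCaGa
Klf2 probe 1: tGtatataaGaCtatGaCCGattGtatttC
Klf2 probe 2: aCaCGCCGCCGCtCaGCCCCGaCGGCCCCC

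Some arrays stood apart from the rest. The array of HF-low-suf mouse 5 had a median Cy5 signal of 1031 against 342 to 431 on the other 11 arrays, and 71.5% of all probes were detected on it against 37.6% to 51.7%. On the array of HF-low-low mouse 1, 928 members lay more than 1 log2 unit from the median of the other arrays, against 80 to 423 members on each of the others. HF-low-low mouse 4 carried high values of an aquaporin, of alpha-defensins and of an aminopeptidase that are given below. The replicate number in the labels followed the slide, which held 1 mouse of each diet from the colon, and slides 1 to 3 and 4 to 6 were scanned on different days. Correlations of the log2 ratios over all members lay between 0.751 and 0.952 for 2 mice of one diet and between 0.756 and 0.978 for 2 mice of different diets. Members with detection on at least 4 more arrays of one diet numbered 48, and for all 48 the diet with more detections was HF-low-suf. Over all members, 2668 were detected on more HF-low-suf arrays and 595 on more HF-low-low arrays, which includes the brighter array of HF-low-suf mouse 5, whose part in this was not tested.

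The labelled tissue was checked against markers of the colon wall. The epithelial markers Krt20, Krt8, Cdh17, Vil1, Muc2, Car1, Car4, Aqp8 and Lgals4 were detected on all 12 arrays, as were Actg2, Myh11, Des and Tagln of smooth muscle, Col1a1, Col3a1 and Dcn of fibroblasts, and Csf1r and C1qa of macrophages. Of the lymphocyte markers only Cd79b was a member, on 10 arrays. Cd79a was detected on 1 array and Cd3e on 5, and the mast cell marker Cpa3 on 1 array, so these cell types are represented here by few of their genes. The adipocyte markers Adipoq, Plin1, Cfd and Fabp4 were detected on all 12 arrays. Skeletal muscle markers were members too, but with log2 ratios far below those of the reference pool, with means of -4.71 (HF-low-low) and -4.73 (HF-low-suf) for Ckm.

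The comparison called few members. Expression ratios are given as the log2 ratio of the Cy3 sample to the Cy5 reference pool after loess normalization, and a difference is the mean of HF-low-suf minus that of HF-low-low, tested with limma over all 41174 probes. The study's threshold asked for more than a 1.5-fold difference together with a P under 0.01 before adjustment. By it 3 members (0.0166%) were called, where 0.168% of all probes of the array were. All 3 had higher ratios in HF-low-suf. Every direction given here follows the dyes as the labels and the methods state them (sample in Cy3), and it is opposite to the one in which the study lists Nov and BC108385, the members found in its list. With these dyes the liver genes Alb (-4.32 in HF-low-low and -4.42 in HF-low-suf) and Fgb (-5.23 and -5.24) lay far below the pool. Markers of the colon wall lay on both sides of it. Myh11 (2.67 and 2.62), Tagln (2.61 and 2.58) and Lgals4 (1.51 and 1.45) were above. Aqp8 (-2.56 and -3.41), Col1a1 (-2.56 and -2.71), Col3a1 (-1.19 and -1.14) and Vil1 (-0.43 and -0.55) were among those below. Ckm of skeletal muscle (-4.71 and -4.73) also lay far below, and which tissues the pool held was not tested. With the slide as a block, which the replicate number follows, 6 members were called, 2 with higher and 4 with lower ratios in HF-low-suf, and 2 of the 3 (Nov and Akap1) were among them. The others were 1110038O08Rik (-0.64), the transcript ENSMUST00000074660 (-0.63), Plin (-0.71) and Rmrp (-0.87), named after their values were seen. With the scan day as a block 2 were called (Nov and Nrf1). The share of all probes called was not computed for either block, so these counts are not a result about the members. At an unadjusted P below 0.05, HF-low-suf had the higher ratio for 125 members (0.691%) and the lower one for 49 (0.271%), below the shares over all probes of 2.11% higher and 0.872% lower. The balance depended on the scaling, with 227 higher and 1 lower under median centring and 77 higher and 102 lower with the Cy3 channel alone. After Benjamini-Hochberg adjustment over all probes, limma called 0 members and 0% of all probes, with a smallest adjusted P of 0.9999 among the members, while 174 members had an unadjusted P below 0.05. The values of the diets did not overlap for 8 members (0.0443%), against 0.0777% of all probes. The shares among members were below those of the whole array at both unadjusted thresholds and for groups without overlap, and 0 in both after adjustment, so the number of called members is not a result about the bright transcripts. The remaining 66 called probes belonged to the 23096 probes detected on fewer than 6 arrays.

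The called member with the largest difference was Nov, which encodes CCN3, a secreted matricellular protein of the CCN family. The log2 ratio of Nov was 0.03 at the lowest, 0.96 at the median and 1.87 at the highest in HF-low-low mice and 1.38, 1.61 and 2.23 in HF-low-suf mice. A single HF-low-low mouse, number 5, lay within the range of the HF-low-suf mice, and the other 5 lay below it. The mean difference of 0.81 (SE 0.25, 95% interval 0.28 to 1.35) equals a 1.76-fold higher level, with an unadjusted P of 0.00546 in limma and an exact permutation P of 0.0173, two-sided over all assignments of the mice to 2 groups of 6. Nov was higher in HF-low-suf on 5 of 6 slides, the difference was 0.84 in mice scanned on the first day and 0.79 on the second, and the P was 0.00387 with the slide as a block. It was not called without HF-low-low mouse 4 (0.65), HF-low-low mouse 6 (0.71), HF-low-suf mouse 1 (0.70) or HF-low-suf mouse 2 (0.79). The other CCN genes in the set were near 0, with differences of 0.11 (SE 0.17) for Ctgf and -0.05 (SE 0.19) for Cyr61. The probes tested belonged to whole tissue, in which fewer cells of a type and less RNA per cell cannot be told apart.

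Akap1 encodes an anchoring protein that holds protein kinase A at the outer mitochondrial membrane. Its probe 1 ranged from -1.17 to -0.06 (median -0.74) in HF-low-low and from -0.47 to 0.48 (median -0.17) in HF-low-suf, so the groups overlapped. The difference was 0.63 (SE 0.21, 95% interval 0.19 to 1.08, P = 0.00809 in limma, exact permutation P = 0.026), and HF-low-suf was higher on 6 of 6 slides. The difference was 0.38 in the mice scanned on the first day and 0.88 in those scanned on the second. With the slide as a block the P was 0.00618, and with the scan day as a block it was 0.0101, past the limit of the threshold. The brightest Akap1 probe, probe 3, gave 0.33 (SE 0.15, P = 0.0455 in limma, exact permutation P = 0.0498) and probe 2 gave 0.23 (SE 0.20, P = 0.273 in limma, exact permutation P = 0.299), so all 3 probes had a positive difference and only probe 1 was called. Probe 1 was not called without HF-low-low mouse 2 (0.57), 4 (0.58) or 6 (0.54) or without HF-low-suf mouse 1 (0.57), 4 (0.53) or 6 (0.64).

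Nrf1 encodes nuclear respiratory factor 1, a transcription factor for nuclear genes of the respiratory chain. Probe 1 of Nrf1 ranged from -0.64 to 0.43 (median -0.11) in HF-low-low and from 0.07 to 0.72 (median 0.57) in HF-low-suf, with overlap of the groups. The difference was 0.59 (SE 0.18, 95% interval 0.21 to 0.98, P = 0.00508 in limma, exact permutation P = 0.0173). This probe was well above background on 2 HF-low-low arrays and 5 HF-low-suf arrays and, like Ipo7 probe 1 described below, entered the set mainly through the group in which it was higher, so its P and its place among the called members are a description only. The brighter probe 2 of Nrf1 gave -0.02 (SE 0.15, 95% interval -0.34 to 0.29, P = 0.876 in limma, exact permutation P = 0.859), so the probes of this gene disagreed. With the slide as a block probe 1 had a P of 0.0124, and it was not called without HF-low-low mouse 1 (0.48), 2 (0.55) or 6 (0.55) or without HF-low-suf mouse 1 (0.55), 3 (0.56) or 4 (0.56).

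**Figure D1:**
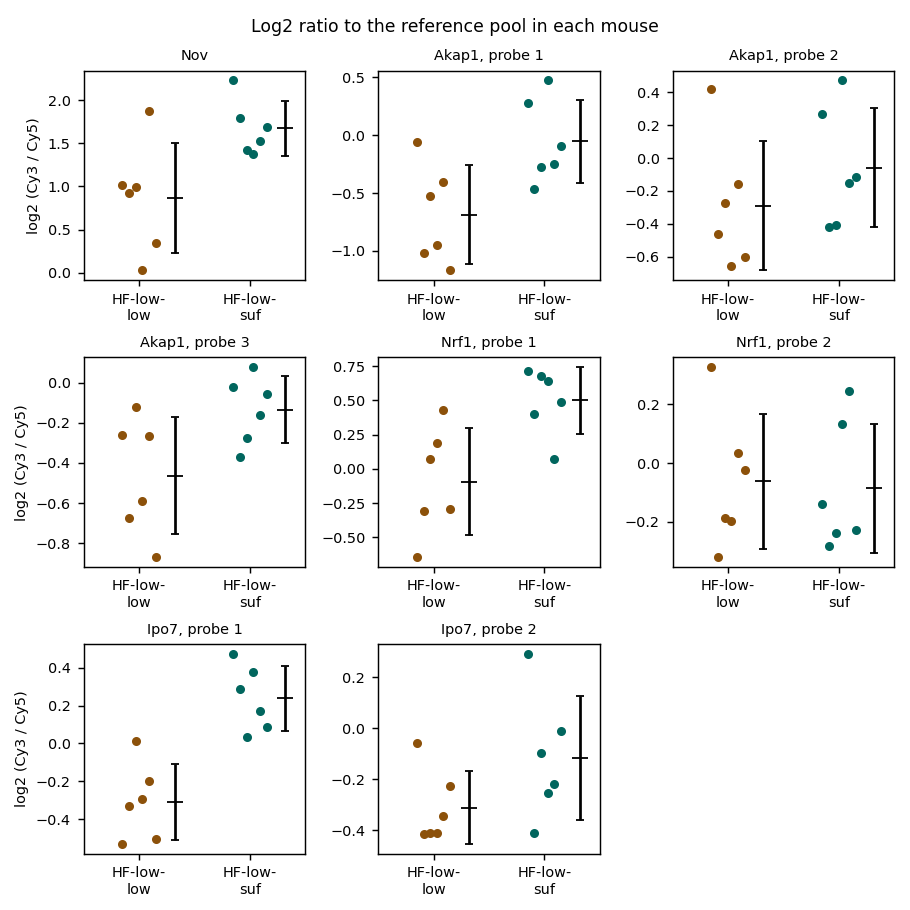
Each point is the log2 ratio of the sample (Cy3) to the reference pool (Cy5) in 1 mouse, for HF-low-low (brown) and HF-low-suf (green), with the mean and SD of 6 mice beside the points. Vertical scales differ between panels. Nov, Akap1 and Nrf1 are shown with all their probes in the set, and of the probes shown only Ipo7 probe 1 has groups that do not overlap.

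Among the 8 members without overlap, 5 had the higher values in HF-low-suf, including Ipo7, Rnf4 and Snrpn, and 3 the lower, including Pitpnm1 and D330001F17Rik. They are named because of their ranges, after their values were seen. Ipo7, a nuclear import receptor, had on its probe 1 a difference of 0.55 (SE 0.14, P = 0.000994 in limma, exact permutation P = 0.00216, the smallest these numbers of mice can give). That Ipo7 probe was well above background on 1 HF-low-low array and 5 HF-low-suf arrays and thus entered the set mainly through the group in which it was higher, so its P is a description only, and Ipo7 probe 2, detected on all 12, gave 0.20 (SE 0.14, P = 0.182 in limma, exact permutation P = 0.121). The differences were 0.28 for Rnf4, a ubiquitin ligase, 0.23 for Snrpn, an imprinted gene of a splicing protein, -0.33 for Pitpnm1 and -0.22 for D330001F17Rik.

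Different probes of a gene rarely agreed on a small P. Probes with an unadjusted P below 0.05 belonged to 172 genes, of which 94 had several member probes, and in 1 of these 94 (Akap1) another probe also had a P below 0.05. All probes pointed the same way in 66 of the 94. Nup98, a nuclear pore protein, had a difference of 0.46 (P = 0.00734 in limma, exact permutation P = 0.0108) on one probe and 0.07 (P = 0.699 in limma, exact permutation P = 0.727) on another.

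Upper bounds on the diet differences were taken from the 95% confidence interval of each member. The interval lay within 1.5-fold in either direction for 14083 members (77.9%) and within 2-fold for 17645 (97.6%), against 58.0% and 96.4% of the probes outside the set. The largest fold change still inside the interval was 1.37 for the median member, 1.65 at the 90th percentile and 2.35 at the 99th percentile, and 24 members had intervals that reached beyond 4-fold. The differences themselves ranged from -1.03 to 0.81, with a median of 0.01 and 5th and 95th percentiles of -0.22 and 0.27. They exceeded 1.5-fold for 38 members, 21 higher and 17 lower in HF-low-suf. The median SE was 0.165 and the median SD between mice of one diet 0.278 on the log2 scale, a factor of 1.21. These intervals are for 1 probe at a time and are not adjusted for their number, and they bound the ratio after background correction with an offset, which reduces the fold change of dim spots. Median centring in place of loess moved the median of all members to 0.15 and left 7764 intervals within 1.5-fold.

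The bounds depended on how often a probe was detected. Just inside the limit, 641 probes were detected on exactly 6 arrays, of which 3.43% had an unadjusted P below 0.05 and 62.1% had an interval within 1.5-fold. Just outside, 702 probes were detected on 5 arrays, with 3.85% and 62.0%. Among the probes detected on all 12 arrays the shares were 0.708% and 82.5%. No member was saturated in Cy3 on any array, and 15 were saturated in Cy5 on at least 1.

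The families differed in the bounds more than in the number of genes called. Of 199 epithelial genes (1 probe a gene, the brightest), 0 had an unadjusted P below 0.05 in the direction of higher ratios and 3 (1.51%) of lower ratios, where 2.11% and 0.872% of all probes did, and 67.3% of the intervals lay within 1.5-fold. Of 150 stromal genes 1 (0.667%) was higher and 0 lower, with 56.0% within 1.5-fold. Of 148 immune genes 0 were higher and 1 (0.676%) lower, with 54.1%, and of 486 metabolic genes 3 (0.617%) were higher and 2 (0.412%) lower, with 81.1%. The typical bound was accordingly 1.48-fold for an immune gene, 1.45-fold for a stromal, 1.41-fold for an epithelial and 1.35-fold for a metabolic gene. Of 172 ribosomal, proteasomal, cell cycle and clock genes 0 had a P below 0.05 in either direction, and 82.6% of the intervals lay within 1.5-fold. The medians of the gene lists given below were small and depended on single mice. With each array left out in turn, 28 of the 46 list medians changed sign and 16 others moved by over 1.5 times. Of 156 named members, 47 changed sign and 75 others moved by over 1.5 times in this way. Under median centring 4 list medians were negative, against 20 with loess.

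**Figure D2:**
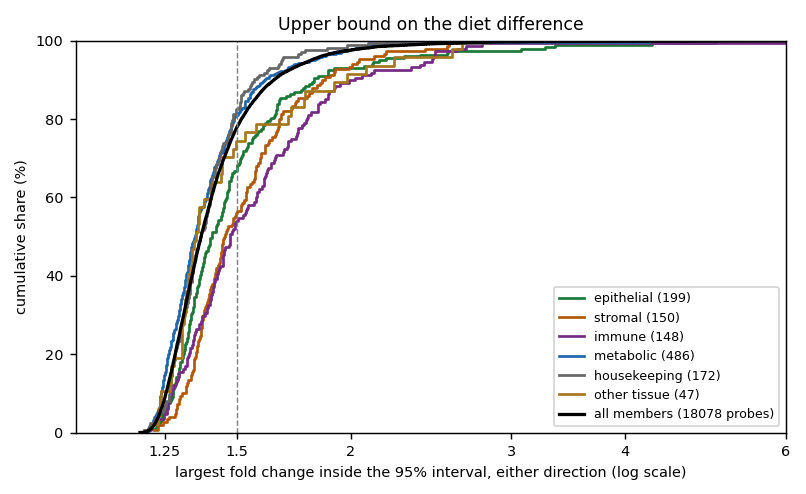
Cumulative share of genes (coloured lines, 1 probe a gene) or of all 18078 members (black) whose largest fold change inside the 95% interval, in either direction, is at most the value on the log-scaled horizontal axis, which ends at 6-fold. At the dashed line of 1.5-fold the immune (54.1%) and stromal (56.0%) genes lie below all members (77.9%) and the metabolic genes (81.1%) above.

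In the epithelium, genes of keratins and junctions tended to have positive differences and those of the brush border did not. Of 37 keratin and junction genes 28 had a higher mean in HF-low-suf, with a median difference of 0.11. Over all members the median was 0.01 and 52.6% were positive, and over all 41174 probes -0.01 and 48.3%. The values over all members also stand beside the sign counts of the lists below. The largest in the keratin and junction list were Ctnnd1 (p120 catenin, 0.31, SE 0.25), Dsg2 (desmoglein 2, 0.25, SE 0.18) and Cdh17 (cadherin 17, 0.22, SE 0.20), and no gene of the list had a P below 0.05. The smallest P in this list was 0.146 in limma (exact permutation P = 0.0952) for the tight junction gene Cldn23, with values from -0.28 to 0.31 in HF-low-low and from 0.10 to 0.22 in HF-low-suf. Of 37 intervals in this list 31 lay within 1.5-fold. Of 20 brush border genes 8 were positive and 12 negative (median -0.04), and Anpep, an aminopeptidase, was at -0.47 (SE 0.31). The Anpep value rested on HF-low-low mouse 4, which reached -1.66 where the median of that group was -3.44, and without that mouse the difference was -0.15.

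Goblet cell genes were mostly positive as well. Of 21 measured, 18 had a higher mean in HF-low-suf (median 0.10, which was 0.045 without HF-low-low mouse 4), and 0 had a P below 0.05. Muc2, the main gel-forming mucin of the colon, ranged from -0.03 to 1.81 (median 1.33) in HF-low-low and from 1.02 to 2.0 (median 1.75) in HF-low-suf, with wide overlap and a difference of 0.48 (SE 0.27, 95% interval -0.09 to 1.05, P = 0.093 in limma, exact permutation P = 0.143). Galnt7, which starts O-glycans of mucins, was at 0.35 (SE 0.20) by its brightest probe and at 0.47 (SE 0.18) by another, whose P was below 0.05, and Agr2, a disulphide isomerase needed for mucin folding, at 0.18 (SE 0.21). Retnlb, a goblet cell cytokine, went the other way at -0.39 (SE 0.32). An increase of Muc2 by more than 2.07-fold lay outside its interval.

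Transport, endocrine and crypt genes showed differences of both signs. Among 29 genes of ion and water transport 18 were positive (median 0.03). Sgk (Sgk1), a kinase induced by glucocorticoids and aldosterone that activates sodium channels, had the only P below 0.05 of that list, with -1.31, -0.78 and -0.37 (lowest, median, highest) in HF-low-low, -1.74, -1.32 and -0.76 in HF-low-suf and a difference of -0.47 (SE 0.21, P = 0.0429 in limma, exact permutation P = 0.0714). Its difference was -0.85 on the first scan day and -0.08 on the second. Over all probes 0.872% had a P below 0.05 in the direction of lower ratios, so 1 gene is not a result about this list. Car2 (carbonic anhydrase 2, 0.30, SE 0.18) was among the positive ones. Of 18 enteroendocrine genes 11 were negative (median -0.04), among them Sct (secretin, -0.25, SE 0.17) and Pyy (peptide YY, -0.18, SE 0.18), with 14 intervals within 1.5-fold. Of 24 stem cell and Wnt target genes 12 were positive. Nkd1, a feedback inhibitor induced by Wnt signalling, ranged from 1.75 to 2.60 in HF-low-low and from 1.51 to 2.15 in HF-low-suf, lower on 6 of 6 slides, with a difference of -0.40 (SE 0.16, P = 0.021 in limma, exact permutation P = 0.026). Rspo1, a secreted enhancer of Wnt signalling, was among the largest negative differences of the set with -0.46 (SE 0.20, P = 0.0356 in limma, exact permutation P = 0.0779), and it was -0.03 in the mice scanned first and -0.88 in those scanned later. Among 20 intestinal transcription factors 13 were positive, none had a P below 0.05, and Cdx2, which specifies intestinal epithelium, was at 0.20 (SE 0.32).

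Some of the largest differences of the set were in defence and water transport genes, and they rested on 1 mouse. Defcr20 (Defa20), an alpha-defensin, had a difference of -1.03 (SE 0.61, P = 0.115 in limma, exact permutation P = 0.245), with -7.41, -7.31 and -2.80 in HF-low-low and -7.54, -7.40 and -6.83 in HF-low-suf. HF-low-low mouse 4 held the value of -2.80, and without it the difference was -0.33. Aqp8, a water channel of colonocytes, had a difference of -0.85 (SE 0.59), with HF-low-low mouse 4 at 0.78 and every other mouse at or below -2.40, and without this mouse the difference was -0.18. The defensins Defcr3 (Defa3, -0.77), Defcr4 (-0.76), Defcr23 (Defa23, -0.64) and Defcr6 (-0.51) shared much of their sequence and may not have been measured separately. Of 30 antimicrobial genes 21 were negative, with a median of -0.14, which was -0.08 without HF-low-low mouse 4. Pigr, the receptor that carries immunoglobulin A across the epithelium, was at 0.37 (SE 0.18, P = 0.0516 in limma, exact permutation P = 0.0563). Its range was -0.60 to 0.28 in HF-low-low and -0.03 to 0.76 in HF-low-suf.

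**Figure D3:**
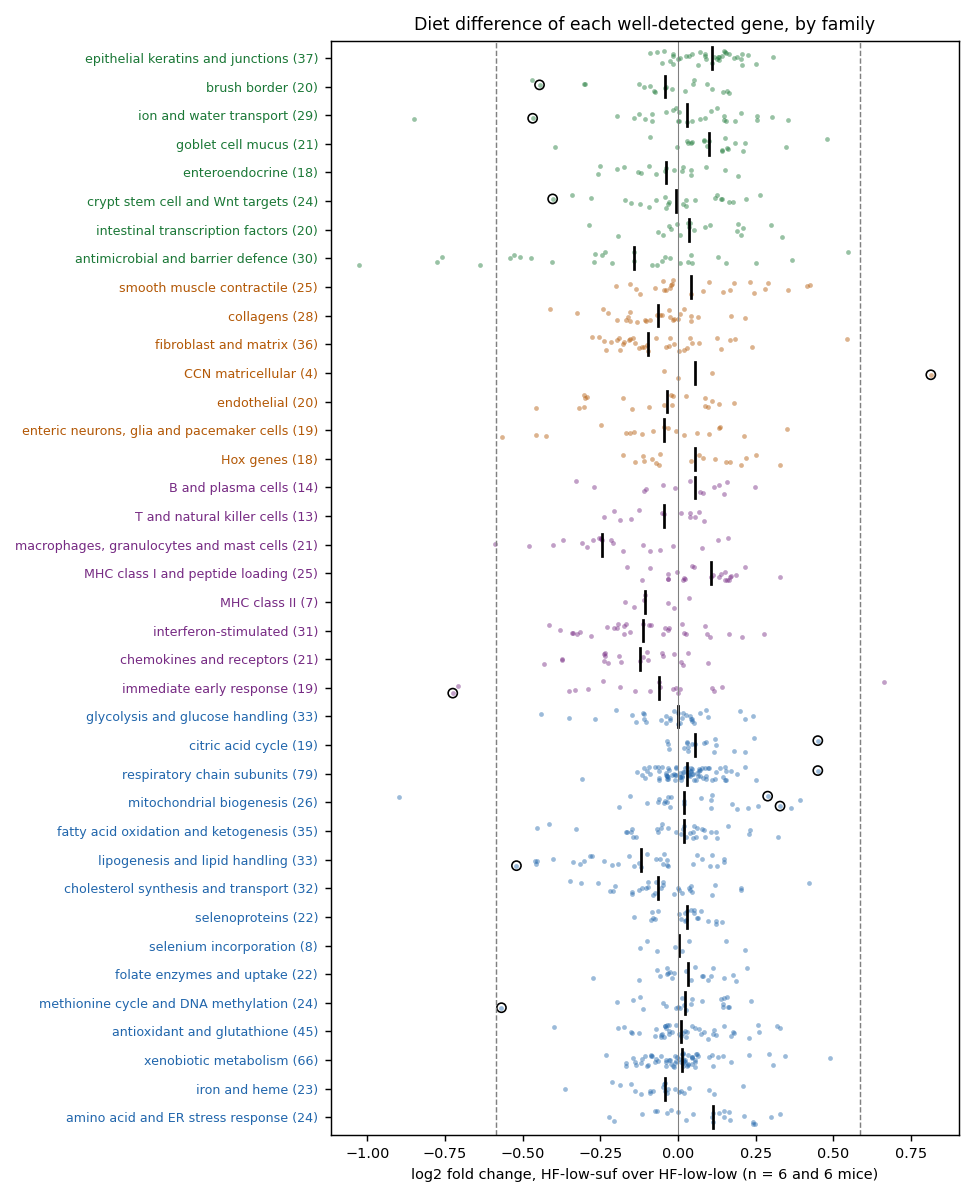
Each point is the diet difference of 1 gene, as the log2 fold change of HF-low-suf over HF-low-low (6 and 6 mice), in rows by family with the number of genes in parentheses. Black bars are medians, circles mark an unadjusted P below 0.05 and dashed lines are 1.5-fold; most genes lie between the dashed lines, and the medians run from -0.25 for macrophages, granulocytes and mast cells to 0.11.

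In the stroma, 1 of 150 genes (Nov) had a P below 0.05, in the direction of higher ratios, where 2.11% of all probes did. Smooth muscle genes had differences of both signs, 13 of 25 positive (median 0.04). Tagln and Myh11, which make and regulate the contractile apparatus, were at -0.02 (SE 0.14, 95% interval -0.32 to 0.27) and -0.05 (SE 0.19, 95% interval -0.46 to 0.36). Myocd, the coactivator that drives smooth muscle genes, was at 0.43 (SE 0.22, P = 0.0689 in limma, exact permutation P = 0.0996). Collagen genes were negative in 21 of 28 (median -0.06) and fibroblast and matrix genes in 24 of 36 (median -0.10), with wide bounds: 14 and 15 intervals of these lists lay within 1.5-fold. The collagen median was -0.14 without HF-low-suf mouse 4 and -0.011 without HF-low-suf mouse 2, and the fibroblast median was -0.18 without HF-low-low mouse 3 and 0.053 without HF-low-low mouse 1 and HF-low-suf mouse 2 together. Col1a1 of the main fibrillar collagen was at -0.15 (95% interval -0.99 to 0.68) and Dcn, the proteoglycan decorin, at -0.24 (95% interval -1.08 to 0.60). Thbs1 (thrombospondin 1) was the most positive of the fibroblast and matrix genes at 0.54 (SE 0.28, P = 0.0652 in limma, exact permutation P = 0.102), where HF-low-low mouse 6 at -0.89 lay far below the other mice. Endothelial genes were negative in 13 of 20 (median -0.03), with Xlkd1 (Lyve1, of lymphatic vessels) lowest at -0.46 (SE 0.31). Kit, of the pacemaker cells of the gut, was at 0.35 (SE 0.19, P = 0.0849 in limma, exact permutation P = 0.102), and S100b, of enteric glia, at -0.57 (SE 0.33), with HF-low-suf mouse 5 at 0.06 and a group median of 1.98, and -0.21 without that mouse. Hox genes, which mark position along the gut, were positive in 10 of 18 and had no P below 0.05.

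Among immune genes, those of macrophages, granulocytes and mast cells had the lowest median, -0.25, with 18 of 21 negative and 0 with a P below 0.05. Cd163, a scavenger receptor of tissue macrophages, was at 1.10, 2.09 and 2.66 in HF-low-low and 0.55, 1.57 and 2.11 in HF-low-suf, a difference of -0.59 (SE 0.34, 95% interval -1.31 to 0.13, P = 0.101 in limma, exact permutation P = 0.182). C1qa of the complement component C1q was at -0.40 (SE 0.42) and Csf1r, the receptor for the macrophage growth factor CSF1, at -0.25 (SE 0.33). The median of this list was negative in all 27 alternative settings, between -0.42 and -0.06, the latter without HF-low-low mouse 4 and HF-low-suf mouse 5. Without HF-low-suf mouse 6 alone it was -0.10. Mgl1 (Clec10a), a lectin of macrophages and dendritic cells outside this list, was among the largest negative differences at -0.65 (SE 0.29, P = 0.0385 in limma, exact permutation P = 0.0887). It ranged from 0.29 to 1.71 in HF-low-low and from -0.61 to 0.97 in HF-low-suf and differed by -0.16 on the first and -1.15 on the second scan day.

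Other immune lists had smaller medians. Chemokines and their receptors were negative in 17 of 21 (median -0.12, between -0.26 without HF-low-low mouse 5 and -0.027 without HF-low-suf mouse 6), led by Ccl24 (-0.43, SE 0.28) and by Ccl25 (-0.37, SE 0.23), which attracts lymphocytes to the gut. Interferon-stimulated genes were negative in 22 of 31 (median -0.11), with Oasl2 at -0.34 (SE 0.17, P = 0.0661 in limma, exact permutation P = 0.0887) and Iigp1 at -0.42 (SE 0.38; -0.095 without HF-low-low mouse 6), and their median was positive under median centring. MHC class II genes, which present antigen to helper T cells, were negative in 6 of 7 with a median of -0.10, which was -0.31 without HF-low-low mouse 3 and 0.051 without HF-low-suf mouse 6, and H2-Aa had an interval from -0.89 to 0.60. Genes of MHC class I and peptide loading were positive in 18 of 25 (median 0.11), with the chaperone Pdia3 highest at 0.33 (SE 0.17, P = 0.0749 in limma, exact permutation P = 0.0844). The 14 measured genes of B and plasma cells (8 positive) and the 13 of T and natural killer cells (6 positive) had no P below 0.05.

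Of 19 immediate early genes, which respond to stimulation within minutes, 13 were negative (median -0.06). Egr1, a transcription factor of this kind, was at -0.46, 0.65 and 1.40 in HF-low-low and -0.87, -0.33 and 0.52 in HF-low-suf, a difference of -0.72 (SE 0.33, P = 0.042 in limma, exact permutation P = 0.0974). The difference was 0.15 on the first scan day and -1.60 on the second, so the direction was not the same on both days. Fos, a subunit of the factor AP-1, was at -0.71 (SE 0.36).

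Macrophage, MHC class II, fibroblast and B cell genes varied together between mice of the same diet. The mean of the macrophage list, each gene centred over the 12 mice, was -0.72 in HF-low-low mouse 3 and -0.41 in mouse 5, but 0.56 in mouse 2. In HF-low-suf it was -0.35 in mouse 2, -0.47 in mouse 5 and -0.65 in mouse 6, but 0.36 in mouse 1. The same 5 mice had negative means of the fibroblast list, between -0.27 and -0.46, and the other 7 had positive means. These mice belonged to both diets, which was also the case for the B cell list, where HF-low-low mouse 3 was at -0.77 and HF-low-suf mouse 1 at 0.80. The keratin list stayed between -0.17 and 0.13 in all 12 mice.

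**Figure D4:**
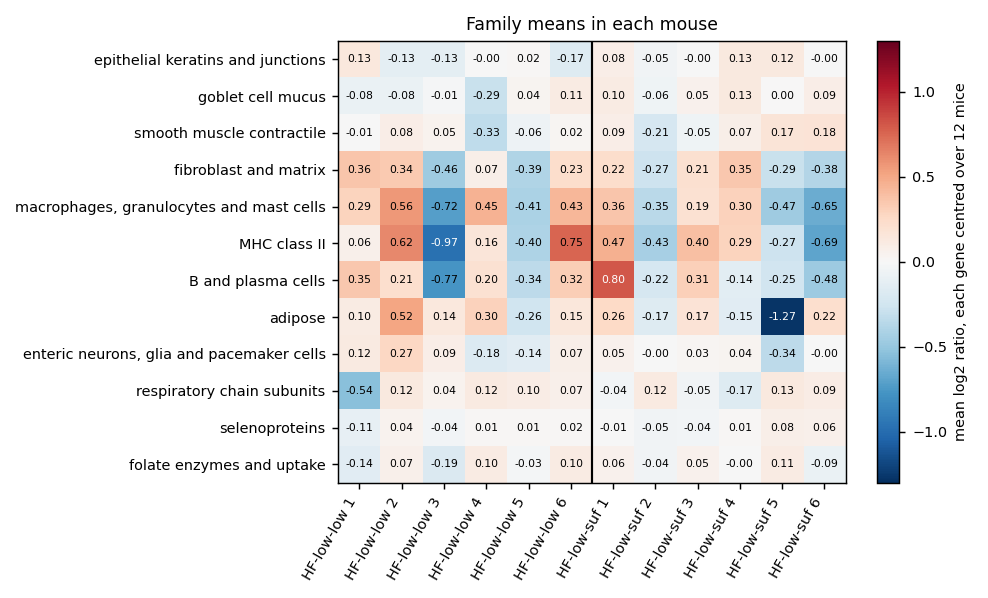
Mean log2 ratio of each gene list (rows) in each mouse (columns, HF-low-low 1 to 6 and HF-low-suf 1 to 6), with every gene centred over the 12 mice; the colour scale is in log2 units. The macrophage, MHC class II, fibroblast and B cell rows are low together in HF-low-low mice 3 and 5 and in HF-low-suf mice 2, 5 and 6, and the adipose row is lowest in HF-low-suf mouse 5 at -1.27.

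Several lipid genes were among the larger negative differences, beside high levels of adipocyte markers. Plin (Plin1), the perilipin coating the lipid droplets of adipocytes, was at 2.85, 3.74 and 4.07 in HF-low-low and 1.34, 3.29 and 3.62 in HF-low-suf. The difference was -0.71 (SE 0.33, P = 0.0438 in limma, exact permutation P = 0.0714), lower in HF-low-suf on 6 of 6 slides, with a P of 0.00581 with the slide as a block. HF-low-suf mouse 5 had the lowest value, and without it the difference was -0.39 and P was no longer below 0.05. S3-12 (Plin4), another perilipin, differed by -0.52 (SE 0.21, P = 0.0231 in limma, exact permutation P = 0.0411) and by -0.38 without that mouse, where P in limma was no longer below 0.05. Of 10 measured adipose genes 8 were negative, and their median of -0.37 was -0.06 without HF-low-suf mouse 5. In that mouse Adipoq was at 1.13 and Fabp4 at 0.12, and their group medians were 3.08 and 1.79. The group means of Adipoq, Plin1, Cfd and Fabp4 lay between 1.55 and 3.74, above the reference pool, and the part of attached fat in any difference was not tested.

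Of 33 genes of lipogenesis and lipid handling 25 were negative (median -0.12, positive under median centring at 0.03). Dgat2, which completes triglyceride synthesis, was at -0.75, 0.31 and 0.77 in HF-low-low and -0.74, -0.25 and 0.17 in HF-low-suf, with a difference of -0.52 (SE 0.25, P = 0.0499 in limma, exact permutation P = 0.0996). Mogat2, an acyltransferase of intestinal fat absorption, was at -0.46 (SE 0.26) and Fasn, the fatty acid synthase, at -0.46 (SE 0.28), while Acly, which supplies acetyl-CoA, was at 0.15 (SE 0.20). Cholesterol genes were negative in 21 of 32 (median -0.06), with 27 intervals within 1.5-fold. Genes of fatty acid oxidation were positive in 20 of 35, and the lowest were Acsl1 (-0.45, SE 0.24) and Pdk4 (-0.41, SE 0.21, P = 0.0609 in limma, exact permutation P = 0.0974), a kinase that restrains pyruvate oxidation.

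Genes of glycolysis and of the citric acid cycle had median bounds of 1.31-fold each, and respiratory chain genes one of 1.36-fold, near the 1.37-fold of all members. Of 33 genes of glucose handling 29 had an interval within 1.5-fold, and the lowest differences were Pcx (pyruvate carboxylase, -0.44, SE 0.21, P = 0.0504 in limma, exact permutation P = 0.0887) and Slc2a4 (the insulin-regulated glucose transporter, -0.35, SE 0.17). Gys2, a glycogen synthase singled out for its small P after its values were seen, differed by -0.44 (SE 0.15, P = 0.00787 in limma, exact permutation P = 0.013). Citric acid cycle genes were positive in 16 of 19 (median 0.05). Sdhc, a membrane subunit of succinate dehydrogenase, was at -1.05, -0.48 and -0.27 in HF-low-low and -0.41, -0.04 and 0.14 in HF-low-suf, a difference of 0.45 (SE 0.16, P = 0.0124 in limma, exact permutation P = 0.0173), but it was -0.40 when the Cy3 channel was used alone. Respiratory chain subunits were positive in 49 of 79 (median 0.03), with 66 intervals within 1.5-fold, and HF-low-low mouse 1 had the lowest mean of the list at -0.54.

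Among 26 genes of mitochondrial biogenesis, 2 had a P below 0.05 in the direction of higher ratios, where 2.11% of all probes and 0.691% of the members did. These were Akap1 (by its brightest probe, 0.33) and Nrip1, a corepressor of oxidative metabolism, at 0.29 (SE 0.13, P = 0.0368 in limma, exact permutation P = 0.0173). With the slide as a block neither had a P below 0.05 (0.0619 for this Akap1 probe and 0.0706 for Nrip1). Ppargc1a, the coactivator PGC-1 alpha, was at 0.39 (SE 0.27) and Tfam, which packages mitochondrial DNA, at 0.26 (SE 0.58). Tfb2m, a mitochondrial transcription factor, had the largest difference of the list at -0.90 (SE 0.56), which rested on HF-low-suf mouse 2 at -4.14, and without it the difference was -0.21.

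Selenoprotein genes, whose products depend on a nutrient that differed between the diets, were close to 0. Their median bound was 1.33-fold, near the 1.37-fold of all members. Of 24 listed genes 22 were measured, 16 with a positive and 6 with a negative difference (median 0.03), and 0 had a P below 0.05. The differences ran from -0.14 for Txnrd2, the mitochondrial thioredoxin reductase, to 0.14 for Selenot (named 2810407C02Rik on the array). Gpx1, the cytosolic glutathione peroxidase, was at -1.86 and -1.92 (group medians of HF-low-low and HF-low-suf), with a difference of -0.09 (95% interval -0.38 to 0.21). Gpx2, the gastrointestinal glutathione peroxidase, differed by -0.08 (95% interval -0.47 to 0.31), Gpx4, which reduces lipid peroxides in membranes, by -0.08 (95% interval -0.44 to 0.28), and Sepp1 (Selenop), the selenium transport protein, by 0.10 (95% interval -0.24 to 0.43). Gpx3, the secreted peroxidase, was at 0.06 (95% interval -0.30 to 0.42) and Dio1, a deiodinase of thyroid hormone, at 0.12 (95% interval -0.24 to 0.49). Of the 22 intervals 21 lay within 1.5-fold, and the exception was Selenoi (D5Wsu178e) with an interval that reached 1.67-fold. Sephs2 was at 0.03 with all mice and at 0.33 without HF-low-low mouse 1 and HF-low-suf mouse 2 together. It had an unadjusted limma P below 0.05 in 2 of the 27 alternative settings. Under median centring, which moved the median of all members to 0.15, all 6 negative differences of the list were positive, between 0.014 (Txnrd2) and 0.096 (Selenoh). The mean of the list was between -0.11 and 0.08 in every mouse. The 8 measured genes of selenium incorporation had 4 differences of each sign, with Sepsecs (D5Ertd135e), which forms selenocysteine on its tRNA, highest at 0.22 (SE 0.19).

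Genes of folate uptake and folate enzymes spread further from 0, between -0.28 and 0.22. Of 22 measured 12 were positive and 10 negative (median 0.03), 19 intervals lay within 1.5-fold, and 0 had a P below 0.05. Tyms, the thymidylate synthase, differed by -0.04 (95% interval -0.42 to 0.34). The folate carrier Slc19a1 was at 0.02 (95% interval -0.29 to 0.34) and the proton-coupled folate transporter Slc46a1 (D11Ertd18e) at -0.06 (95% interval -0.35 to 0.23). The largest were Folr2, a folate receptor of macrophages, at -0.28 (SE 0.29), and Gcsh, of the glycine cleavage system, at 0.22 (SE 0.27).

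Of 24 genes of the methionine cycle and DNA methylation 1 had a P below 0.05, in the direction of lower ratios. Over all probes 0.872% did, and 1 gene is not a result about the list. Nnmt, which consumes methyl groups to methylate nicotinamide, was at 1.60, 2.22 and 2.69 in HF-low-low and 0.47, 1.83 and 2.01 in HF-low-suf, a difference of -0.57 (SE 0.27, P = 0.048 in limma, exact permutation P = 0.0844). HF-low-suf mouse 5 held the lowest value of 0.47, and without it the difference was -0.34 and P was no longer below 0.05. By their brightest probes the other 23 genes of the list had differences between -0.20 (Dnmt3l) and 0.24 (Ahcyl2). Ahcy, which cleaves S-adenosylhomocysteine, had 3 member probes at 0.05, 0.14 and 0.33, and the P of the probe at 0.33 was below 0.05.

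Antioxidant, xenobiotic, iron and stress genes had no P below 0.05. Of 45 antioxidant genes 24 were positive, with Gclm, the regulatory subunit of the enzyme that starts glutathione synthesis, at 0.32 (SE 0.17, P = 0.0846 in limma, exact permutation P = 0.102) and Nqo1, a quinone reductase, at 0.03 (95% interval -0.38 to 0.43). Xenobiotic genes were positive in 36 of 66, with Cyp1a2 highest at 0.49 (SE 0.28), and iron and heme genes negative in 16 of 23, with Tfrc, the transferrin receptor, lowest at -0.36 (SE 0.25). Genes of the amino acid and ER stress response were positive in 17 of 24 (median 0.11, and 0.044 without HF-low-suf mouse 1), among them Pdia4 (0.30, SE 0.24) and Hspa5, the ER chaperone BiP (0.21, SE 0.19). Of the 37 proteasome subunits all 37 had an interval within 1.5-fold, the widest reaching 1.49-fold for Psma3.

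Probes rich in G and C had much wider bounds than the rest. The 101 members with at least 65% G and C had a median SD between mice of 0.589 and intervals within 1.5-fold for 42.6%, while the other classes of base content had median SDs from 0.272 to 0.281. On the array of HF-low-low mouse 1 these 101 probes lay 1.04 below their own means over the mice at the median, with a deviation of -1.04, and on that of HF-low-suf mouse 2 the deviation was -0.50. It was 0.50 for HF-low-low mouse 5, 0.57 for HF-low-low mouse 6, 0.55 for HF-low-suf mouse 5 and 0.44 for HF-low-suf mouse 6. The 50 members with the largest spread had SDs of 1.24 to 2.47 and a median of 65.8% G and C against 43.3% over all members, and in 45 of the 50 HF-low-low mouse 1 and HF-low-suf mouse 2 held the lowest values. None of these 50 had a P below 0.05. Klf2, a transcription factor of endothelium and lymphocytes, had probes of both kinds. Its probe 2, with 78.3% G and C, had an SD of 2.21 and a difference of 0.66 (P = 0.524 in limma, exact permutation P = 0.561), with a bound of 7.02-fold, while probe 1, with 43.3%, had an SD of 0.43 and a difference of -0.49 (P = 0.0419 in limma, exact permutation P = 0.0779). The difference of probe 2 was -0.10 without HF-low-low mouse 1 and 1.52 without HF-low-suf mouse 2, so its sign rested on single mice.

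**Figure D5:**
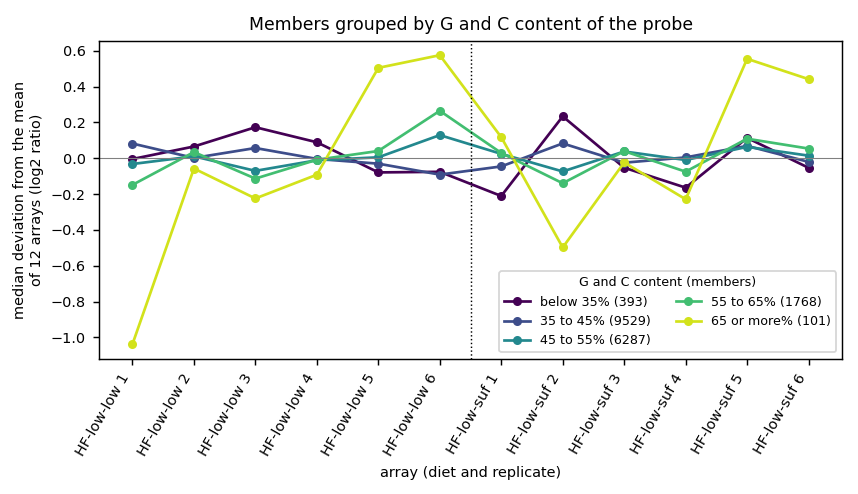
Median deviation of the members from their own mean over the 12 mice (log2 units, vertical axis) on each array (horizontal axis), by share of G and C in the probe. The class of 65% or more (101 members) departs from the others, lowest at -1.04 on HF-low-low 1 and at -0.50 on HF-low-suf 2, while the classes between 35% and 55% stay near 0.

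Leaving out the arrays of HF-low-low mouse 1 and HF-low-suf mouse 2, a choice made after the data were seen, changed the number of calls and of members with P below 0.05 more than any other alternative run. The called members then numbered 47 (0.260%, 38 with the higher mean in HF-low-suf and 9 with the lower), against 0.204% of all probes, so that here the share was the larger among members. Of the 3 members called with all mice, 1 (Akap1, 0.84) was among the 47. All 47 had the sign they had with all mice. Members with an unadjusted P below 0.05 made up 4.44%, against 3.97% of all probes, and the smallest adjusted P in limma was 0.993, so no member passed the adjusted threshold in this setting either.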

How the data were processed

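The values were the scanner outputs of 12 Agilent 2-colour arrays of colon RNA, from which the mean and background intensity of each spot in both dyes were used as deposited by the authors after Feature Extraction. The array files also carried log10 ratios, error estimates and p-values of the image software, which were not used as results here. Spots marked as outliers and control spots were left out, background was corrected by normexp with an offset of 50, and arrays were normalized by loess in limma 3.58.1 (R 4.3.3). The resulting log2 ratio of Cy3 to Cy5 was computed here from those intensities. Differences were fitted with lmFit and eBayes over 41174 probes, with Benjamini-Hochberg adjustment, and a 95% interval from the moderated statistic. The number of arrays, 6 a group, limits the precision. Each array was of 1 mouse, so the replicates are biological. A two-sided exact permutation test over all assignments of the mice was added for named members. Gene lists (46) used 1 probe a gene, the brightest member probe. Names are those of the array, updated through RefSeq accessions where these matched (22948 of 23848 probes).

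The members and the gene lists were chosen with earlier results of these data known. Named genes were all called members, the 8 largest higher and 8 largest lower differences with P below 0.05 among members with a gene symbol (1 probe a gene, the brightest), the largest difference and the smallest P of each list, all selenoprotein and folate genes, and the markers. Of the 8 higher ones only Nov is described above. The others were LOC666339 (0.61), 2310042E16Rik (0.57), A330103N21Rik (0.56), 9030612M13Rik (0.51), E230008O15Rik (0.49), Pdcd6ip (0.46) and 2610042L04Rik (0.46). Further members of lists were given as examples. Ipo7, Nup98, Gys2 and Klf2 were added after their values were seen. Scripts were tested on simulated data. Alternatives covered the background correction, normalization, detection rule, array weights, slide and scan day, and each array left out. The arrays of liver were not used here, and some genes are not reported here.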

Additional observations from a re-analysis of the deposited data

Results flagged for a closer look

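Among 328 groups of 6 values, 24 (7.32%) were flagged. In each, the gap of 1 mouse to its nearest neighbour was a larger part of the group's range than Dixon's 95% critical value allows. Chance gives about 1 in 20 for groups not chosen by their values. Many genes here were chosen for a large difference or a small P, so the share is a description only. In HF-low-low the flagged values were Aqp8 at 0.78 and Krt20 at 0.70 in mouse 4, Thbs1 at -0.89 and 2810407C02Rik (Selenot) at -1.65 in mouse 6, Atic at -0.36 and Krt8 at -0.70 in mouse 3, and a Nup98 probe at 0.61 in mouse 1. In HF-low-suf mouse 5 they were Nnmt at 0.47, S100b at 0.057, Acsl1 at -2.74, Adipoq at 1.13 and Fabp4 at 0.12. In HF-low-suf mouse 2 they were Tfb2m at -4.14, Myh11 at 1.99, Ckm at -5.22, Mylpf at -6.05 and probe 2 of Klf2 at -4.98, and in mouse 6 the other Nup98 probe at -0.36.

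Among list means the values were -0.15 for brush border genes in HF-low-low mouse 3, -0.33 for smooth muscle in HF-low-low mouse 4, 0.30 for CCN genes in HF-low-low mouse 5, -0.54 for the respiratory chain in HF-low-low mouse 1, and -0.34 for enteric neurons and glia and -1.27 for adipose genes in HF-low-suf mouse 5. HF-low-suf mouse 5 and HF-low-suf mouse 2 held 12 of the 24.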

How the results depend on the processing

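The number of called members, 3 of 18078, was 1 without background correction, 5 with the signals as processed by Feature Extraction, 6 with median centring in place of loess, 9 when detection on 3 or more arrays sufficed and 5 with array quality weights. Leaving out 1 array at a time gave 0 to 17 calls, with 17 without HF-low-low mouse 5, 6 without HF-low-low mouse 3, 5 without HF-low-suf mouse 2, 1 without HF-low-suf mouse 4, and 0 without HF-low-low mouse 6 or HF-low-suf mouse 1. With the replicate block there were 6 calls and 238 members with P below 0.05. For the runs with a block or with 1 array left out, the share of all probes called was not computed. Deviations of same-numbered mice correlated between -0.37 and 0.47, over 0.1 in 4 of 6 pairs, and 1 of 6 was the best match, so the fit without the block was kept although the numbers follow the slides. Members with an unadjusted P below 0.05, 174 in all, were 108 with the Feature Extraction signals, 98 when detected on all 12 arrays, 276 when detected on 3 or more, 389 with array weights, 101 without HF-low-low mouse 4 and HF-low-suf mouse 5 together, and 92 to 461 with 1 array left out (283 without HF-low-low mouse 1, 461 without HF-low-low mouse 5, 104, 450, 92 and 112 without HF-low-suf mice 1, 2, 4 and 5). Without HF-low-low mouse 1 and HF-low-suf mouse 2 together they were 802, with 47 calls. Both omissions of 2 arrays were chosen after the data were seen. The split of P below 0.05 into higher and lower, 125 and 49, was 227 and 1 with median centring and 77 and 102 with the Cy3 channel alone. Intervals within 1.5-fold numbered 14083, and 7764 with median centring. The adjusted threshold of limma was passed by 0 members under all 27 alternatives. Signs of named members were counted as reversed where they moved by more than their SE, which happened 21 times. With median centring Gpx1 was 0.063, 2700094K13Rik 0.096, Selk 0.083, Folr1 0.13, Fpgs 0.15, D11Ertd18e 0.098, Lgals4 0.083, Tagln 0.13 and Fgb 0.15. With the Cy3 channel alone S100b was 0.041 and Sdhc -0.40, and with array weights Gcsh was -0.045. Without HF-low-low mouse 4 and HF-low-suf mouse 5 Pax4 was 0.000203, Dio3 -0.17 and Des -0.047. Without HF-low-low mouse 1 and HF-low-suf mouse 2 D5Wsu178e was -0.34, Gcsh -0.13, Mthfs -0.13, Vil1 0.073, Myh11 0.17 and Clps -0.18. At the other end of the values with arrays left out, where the sign was that of all mice, Des was 0.44 without HF-low-low mouse 1 and HF-low-suf mouse 2, Dio3 was 0.094 without HF-low-suf mouse 2, Mthfs 0.18 without HF-low-low mouse 4, D5Wsu178e 0.21 and Vil1 -0.20 without HF-low-low mouse 3, and Gcsh 0.35 and Clps 0.11 without HF-low-low mouse 2. The causes were not tested. Of the medians of the 46 lists 1218 values moved by less than the spread and 24 by more. Signal over background in Cy3 (3.83 to 7.20 times) limits what dim members can show.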
